A study of Homo sapiens with 10 samples.

Results

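The fatty acid desaturases FADS1, FADS2 and FADS3 and the elongases ELOVL1 to ELOVL7 were examined in PC3 cells treated with an LXR agonist. These 10 genes were chosen by symbol from the 62656 genes of the table. PC3 is a human prostate cancer cell line derived from a bone metastasis. The cells were starved overnight and then kept for 24 h in RPMI-1640 with L-glutamine, either with 1 µM of GW3965, a synthetic ligand of LXRα and LXRβ, or with the vehicle DMSO. Each condition had 5 libraries, made from RNA depleted of ribosomal RNA. No source used here says whether they came from separate cultures, so p-values measure the spread between libraries, which may be technical.

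Desaturases place double bonds in acyl chains, and elongases lengthen acyl-CoA in the endoplasmic reticulum by adding a carbon pair in each cycle. FADS2 and FADS1 act in turn on dietary linoleic and alpha-linolenic acid, with an ELOVL5 elongation between them, and so make arachidonic and eicosapentaenoic acid. ELOVL6 extends palmitate and palmitoleate made by de novo lipogenesis. LXRs are nuclear receptors for oxysterols that induce SREBF1, whose product drives transcription of many lipogenic enzymes.

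Reads were recovered from the steps of the deposited RPKM values (reads over gene length in kilobases, with a factor for each library) and totalled 30612230 to 39387348 per DMSO library and 30431690 to 41638859 per GW3965 library. The RN7SL RNAs took 12.0 to 23.2% of them. On the first principal component of the reads, DMSO library 1 and GW3965 libraries 1 and 2 lay between -19.7 and -17.7, while the other libraries lay at -3.89 or above. No source used here names a batch that these 3 libraries share. Of the markers set for PC3, the epithelial keratin genes KRT8, KRT18 and KRT19 had means of 36.6, 49.6 and 149 RPKM over the 10 libraries, EPCAM had 1.73, and the mesenchymal marker VIM had 69.5 RPKM. The 5 together summed to 256 to 329 RPKM with DMSO and 287 to 341 RPKM with GW3965. KLK3, the gene of prostate-specific antigen, was at 0 in all libraries, and KLK2 had 5 reads in all. None of the leukocyte, adipocyte and hepatocyte markers reached a mean of 0.5 RPKM, and the summed level of each of these lists was at most 0.535 RPKM. The endothelial markers summed to 0.411 to 0.765 RPKM. The fibroblast markers summed to 3.02 to 5.65 RPKM with DMSO and 2.75 to 5.71 RPKM with GW3965. All 4 LXR targets used to check the treatment were called higher with GW3965: SREBF1 and SCD, which are described with the pathway, and the genes of the sterol exporters, ABCA1 by a log2 fold change of 2.29 and ABCG1 by 2.13, with adjusted p of 0.00063 and 0.000124 by limma.

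The 10 genes covered a wide range of levels. FADS2 was the most abundant, with a mean of 83.0 RPKM over the 10 libraries, followed by ELOVL5 with 62.2, FADS1 with 26.2, ELOVL1 with 17.8 and FADS3 with 4.53 RPKM. ELOVL4 and ELOVL6 had means of 1.60 and 1.57 RPKM and did not differ beyond their spread. ELOVL4 was the higher of them in 5 of 5 DMSO libraries and in 2 of 5 GW3965 libraries. ELOVL2, ELOVL3 and ELOVL7 were lowest, with 0.465, 0.301 and 0.0310 RPKM. ELOVL2 was above ELOVL3 in 9 of 10 libraries, and apart from these and the pair of ELOVL4 and ELOVL6, neighbours in this order kept it in 10 of 10. FADS2 made up 72.2% ± 2.01 of the summed RPKM of the FADS genes with DMSO and 73.6% ± 1.46 with GW3965 (SD, n = 5). ELOVL5 made up 72.6% ± 3.39 and 75.2% ± 1.37 of the summed elongase RPKM. Among the FADS genes and among the ELOVL genes, most of the RNA thus came from an enzyme of polyunsaturated fatty acid synthesis, in both conditions. SCD, a desaturase outside these 10 genes, was left out of the sum. It was higher than FADS2, with means of 204 RPKM with DMSO and 365 RPKM with GW3965.

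**Figure D1:**
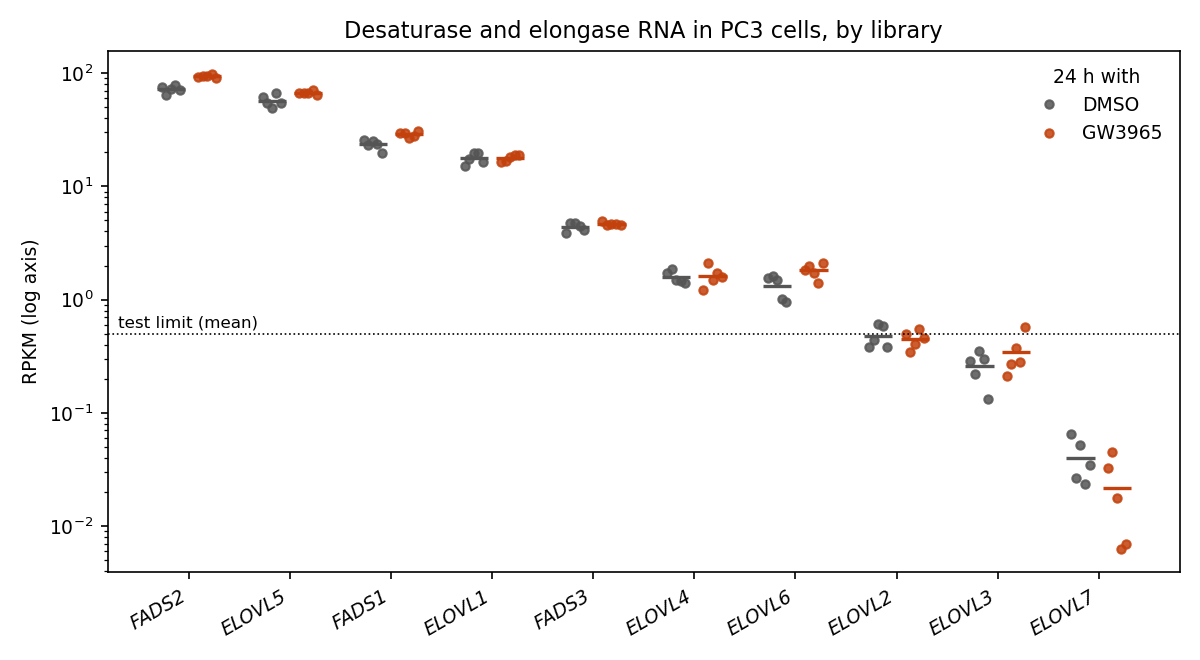
RPKM of the 10 desaturase and elongase genes on a log axis, in order of mean level, with 1 point per library, grey for DMSO and orange for GW3965, and a bar at each group mean (n = 5). The dotted line marks the mean of 0.5 RPKM needed for the test; the GW3965 points of FADS2 and FADS1 lie above all their DMSO points, while those of ELOVL1 lie among them and those of ELOVL4 reach both above and below them.

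The question asked of each gene was whether its RNA changed with GW3965. Of the 10 genes, 7 had a mean of at least 0.5 RPKM and were tested with limma on log2(RPKM + 0.1), together with all 20402 genes that reached this level. FADS2 passed the threshold of an adjusted p under 0.05, so 1 of 7 was called, and it was higher. Of all tested genes, 0.157% were called in either direction, 0.147% higher and 0.0098% lower. FADS2, FADS1, ELOVL5 and ELOVL6 had an unadjusted p under 0.05, each higher with GW3965, so 4 of 7, against 4.64% of all tested genes that were higher at this level and 6.99% in either direction. All 7 log2 fold changes were above 0, as were 51.1% of those of all tested genes, and their median was 0.24 against 0.00 over all tested genes. In bulk RNA, more cells that express a gene and more RNA per cell cannot be told apart.

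Among the FADS genes, FADS2 was called, while FADS1 and FADS3 did not pass. FADS2, the delta-6 desaturase that opens polyunsaturated fatty acid synthesis, measured 75.5, 64.3, 72.6, 78.7 and 70.9 RPKM in DMSO libraries 1 to 5 and 92.4, 93.8, 94.6, 97.3 and 89.8 RPKM in GW3965 libraries 1 to 5. All GW3965 libraries were above all DMSO libraries, as was the case for 1.35% of all tested genes, and the GW3965 values spread less. The group means were 72.4 ± 5.41 and 93.6 ± 2.79 RPKM (SD over 5 libraries). FADS2 thus rose by 0.37 ± 0.06 (SE) on the log2 scale, with a 95% interval of 0.24 to 0.50 and an adjusted p of 0.0459 by limma. At 23202 to 39547 reads per library, counting error was 0.565%, well under the 5.19% by which libraries of 1 condition varied. The call was close to the threshold. In 24 alternative settings the log2 fold change stayed between 0.33 and 0.42, while the adjusted p ran from 0.0129 to 0.144 by limma and was under the threshold in 9. It was lost when any single library other than DMSO library 4 was left out, and without the 3 libraries that stood apart the change was 0.39 with an adjusted p of 0.144 by limma.

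FADS1, the delta-5 desaturase that forms arachidonic acid, measured 25.5, 23.4, 24.9, 23.9 and 19.9 RPKM with DMSO and 29.4, 29.6, 26.7, 27.9 and 31.0 RPKM with GW3965. Its groups did not overlap either, with DMSO library 5 the lowest. The means were 23.5 ± 2.17 and 28.9 ± 1.64 RPKM, and the log2 fold change was 0.30 ± 0.07 (SE) with a 95% interval of 0.14 to 0.46, which did not pass over all genes (adjusted p = 0.222 by limma). FADS3, which is known to act on sphingoid bases, measured 3.84, 4.72, 4.73, 4.48 and 4.11 RPKM with DMSO and 4.99, 4.54, 4.66, 4.67 and 4.60 RPKM with GW3965. Its groups overlapped, and the log2 fold change of 0.10 had a 95% interval of -0.05 to 0.25 (adjusted p = 0.848 by limma). It was 0.06 without DMSO library 1 and 0.04 without the 3 libraries that stood apart. Summed over the 3 genes, desaturase RNA lay between 92.4 and 107 RPKM with DMSO and between 125 and 129.9 RPKM with GW3965.

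FADS2 and FADS1 were compared within each library, since they act in 1 pathway. FADS2 was 3.10 ± 0.327 times FADS1 with DMSO and 3.25 ± 0.266 times with GW3965 (SD, n = 5), where both levels are RPKM. The log2 ratio differed by 0.07 between conditions, less than its spread (two-sided exact permutation test, p = 0.421, adjusted p = 0.421 over 3 ratios). On leaving out 1 library it ran from 0.03 without DMSO library 2 to 0.12 without DMSO library 5. SCD, the delta-9 desaturase that makes oleate and palmitoleate, was compared with FADS2 in the same way. The log2 ratio of SCD to FADS2 lay between 1.35 and 1.62 with DMSO and between 1.87 and 2.05 with GW3965. The groups did not overlap, and the means of 1.49 ± 0.104 and 1.96 ± 0.0815 differed by 0.48 (exact permutation test, p = 0.00794, the smallest this test can give with 5 against 5, adjusted p = 0.0238). SCD RNA was thus raised more than FADS2 RNA. Without the 3 libraries that stood apart the difference was 0.47, with an adjusted p of 0.0857 by exact permutation. Its unadjusted p was the smallest this exact test can give with those left.

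**Figure D2:**
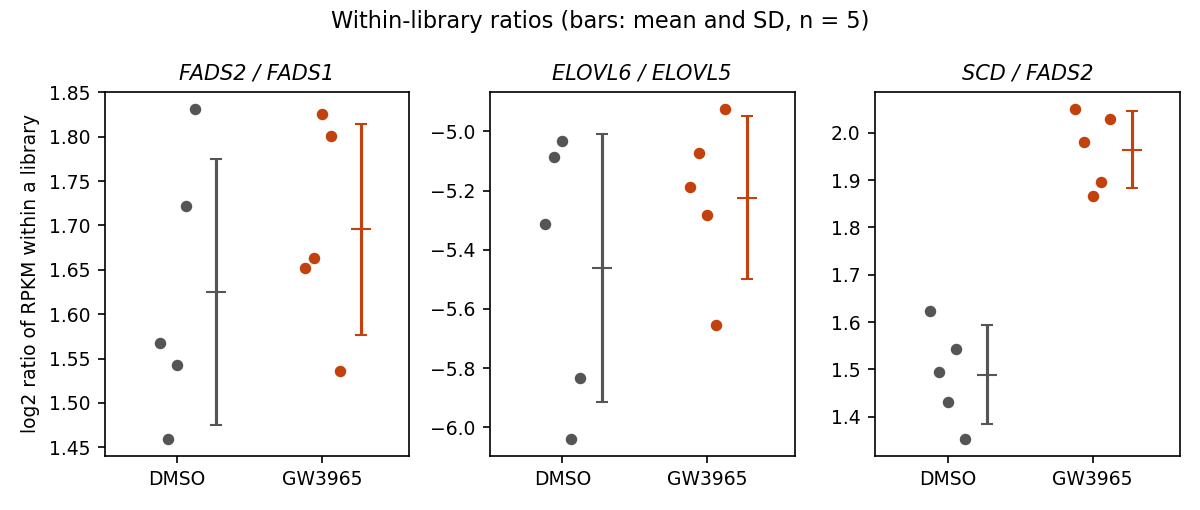
Log2 ratio of the RPKM of gene pairs within a library, for FADS2 over FADS1, ELOVL6 over ELOVL5 and SCD over FADS2, with 1 point per library and the mean and SD of each condition beside the points (n = 5); the vertical axes differ in range. The SCD to FADS2 ratios of the GW3965 libraries all lie above those of the DMSO libraries, and the other pairs overlap.

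FADS1, FADS2 and FADS3 lie side by side on chromosome 11. In GENCODE 29 (GRCh38), FADS2 covers chr11:61792980-61867354 on the plus strand, FADS1 chr11:61799625-61829318 on the minus strand, and FADS3 chr11:61873519-61892051 on the minus strand. FADS1 thus lies within the span of FADS2, and their exons share 490 bases on opposite strands, which is 4.79% of the exon bases of FADS1 and 4.44% of those of FADS2. The library kit marks strand, but the strand setting of the counting is not given in the sources used here. How reads in the shared bases were counted is therefore not known. In GENCODE 29, FADS2 also shares 49 exon bases on the same strand with FEN1. The gene lengths behind the deposited values were 10228 bases for FADS1 and 10553 for FADS2, against 10230 and 11026 exon bases in GENCODE 29. These overlaps may thus differ in the annotation that was counted. As for shared sequence, 1.87% of the 50-base windows of FADS1 transcripts and 0.0983% of those of FADS2 occur in transcripts of other genes, and none of the 10 genes shares such a window with another of them on the same strand.

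The neighbours of the cluster were read for comparison. Of 6 tested neighbours, limma called 0, against 0.157% of all tested genes, and voom on the recovered reads also called 0. An unadjusted p under 0.05 by limma was reached by 1, which was higher, against 4.64% of all tested genes. FTH1, which encodes the ferritin heavy chain and lies beyond FADS3, had a log2 fold change of 0.37 with an adjusted p of 0.443 by limma. The flap endonuclease gene FEN1, which overlaps the first annotated bases of FADS2, had -0.21 with a 95% interval of -0.55 to 0.13. MYRF, TMEM258, RAB3IL1 and BEST1 had log2 fold changes of -0.06, 0.00, 0.07 and 0.25.

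**Figure D3:**
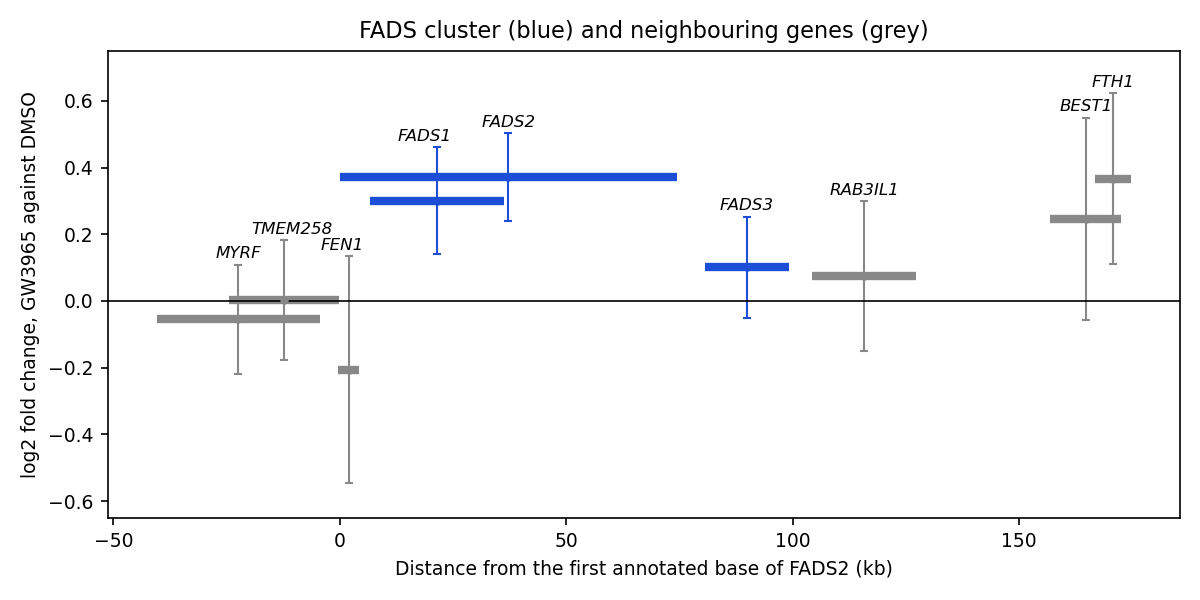
Log2 fold change of GW3965 against DMSO for the FADS genes (blue) and their neighbours (grey), each drawn as a horizontal bar over its annotated span in kilobases from the start of FADS2, with the 95% interval of limma as a vertical line. The intervals of FADS1 and FADS2 lie above 0, as does that of FTH1, while that of FADS3 includes 0.

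The sequence before the annotated starts is shown for FADS2, which was called, for FADS1 and ELOVL6, which had an unadjusted p under 0.05, and for FADS3, which had neither. ELOVL5 also had an unadjusted p under 0.05, but only 21 of the 250 bases of its window lie outside annotated exons, and it is not printed. RefSeq promoters (GRCh38.p14) were found for all 10 genes, and the 250 bases before each start were searched on both strands. The stretches printed are the longest runs of these windows outside annotated exons, written 5′ to 3′ on the strand of the gene, with matches to the CCAAT box, the E-box CACGTG or the GC box GGGCGG in capitals. They are chr11:61817198-61817253 of FADS1, chr11:61816154-61816255 of FADS2, chr11:61891546-61891795 of FADS3 and chr4:110198677-110198841 of ELOVL6.
FADS1: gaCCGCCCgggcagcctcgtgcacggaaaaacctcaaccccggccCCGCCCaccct
FADS2: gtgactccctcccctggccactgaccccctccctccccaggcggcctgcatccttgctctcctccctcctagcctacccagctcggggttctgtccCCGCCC
FADS3: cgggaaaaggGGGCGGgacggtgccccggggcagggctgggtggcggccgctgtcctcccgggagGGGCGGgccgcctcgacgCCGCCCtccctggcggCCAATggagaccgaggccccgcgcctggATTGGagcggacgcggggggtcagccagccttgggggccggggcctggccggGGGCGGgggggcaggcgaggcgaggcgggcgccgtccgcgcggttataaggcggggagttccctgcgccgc
ELOVL6: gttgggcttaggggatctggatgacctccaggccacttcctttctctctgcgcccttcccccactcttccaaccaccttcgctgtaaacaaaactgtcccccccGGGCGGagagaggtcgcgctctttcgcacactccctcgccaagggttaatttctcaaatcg

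The sterol regulatory element TCACNCCAC, present in 0.883% of 35116 promoters of this length, and the LXR element DR4, a direct repeat of AGGTCA spaced by 4 bases and present in 0.0142%, were in none of the windows of the 10 genes. CCAAT, the box bound by NF-Y and present in 32.0% of promoters, was in the windows of FADS3, ELOVL1, ELOVL3, ELOVL4 and ELOVL5. CACGTG, an E-box in 6.35% of promoters, was in those of ELOVL4 and ELOVL5. GGGCGG, the GC box in 42.6% of promoters, was in a window of each gene except ELOVL5. In ELOVL1 the CCAAT match overlapped a GGGCGG match. A match describes letters only, and the gene-level RPKM does not tell apart the 15 starts that GENCODE 29 lists for FADS2.

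Among the 4 tested elongases, limma called 0, against 0.157% of all tested genes, so that 0 is near this share. Voom on the recovered reads also called 0, against 63 of all 20402 tested genes. Of the 4, 2 had an unadjusted p under 0.05 by limma, both higher, against 4.64% of all tested genes. These were ELOVL5, which extends polyunsaturated chains, and ELOVL6 of the de novo pathway. ELOVL5 measured 61.5, 54.9, 48.8, 66.1 and 54.4 RPKM with DMSO and 66.9, 67.0, 67.1, 71.0 and 64.2 RPKM with GW3965. DMSO library 4 lay among the GW3965 libraries, 4 of which were above all DMSO libraries. The means were 57.1 ± 6.74 and 67.2 ± 2.41 RPKM, and the log2 fold change was 0.24 ± 0.08 (SE) with a 95% interval of 0.07 to 0.41 and an adjusted p of 0.46 by limma.

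ELOVL6 measured 1.55, 1.62, 1.49, 1.00 and 0.954 RPKM with DMSO and 1.84, 1.99, 1.72, 1.41 and 2.12 RPKM with GW3965. DMSO libraries 4 and 5 were low, and GW3965 library 4 lay among the DMSO values. ELOVL6 had the highest log2 fold change of the 7 tested genes, 0.45 ± 0.17 (SE), but a wide 95% interval of 0.08 to 0.81 and an adjusted p of 0.568 by limma. It rested on 225 to 578 reads per library, and libraries of 1 condition varied by 18.8%, against a counting error of 4.95%. The log2 ratio of ELOVL6 to ELOVL5 differed by 0.24 between conditions, within its spread (exact permutation test, p = 0.31, adjusted p = 0.421). It was 0.09 without DMSO library 4 and 0.14 without DMSO library 5, and 0.34 without DMSO library 3 or GW3965 library 4.

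ELOVL1 extends saturated and monounsaturated chains for sphingolipids. It measured 15.2, 17.3, 19.8, 19.7 and 16.5 RPKM with DMSO and 16.5, 16.8, 18.3, 18.8 and 19.0 RPKM with GW3965. Its log2 fold change was 0.02, with a 95% interval of -0.16 to 0.20 (adjusted p = 0.986 by limma), which bounds a change in either direction more closely than for ELOVL4 or ELOVL6. ELOVL4, which makes the very long chains of retina and skin, measured 1.72, 1.86, 1.49, 1.46 and 1.40 RPKM with DMSO and 1.22, 2.09, 1.50, 1.72 and 1.58 RPKM with GW3965. GW3965 libraries 1 and 2 held its lowest and highest values, and the log2 fold change of 0.02 had a 95% interval of -0.28 to 0.31 (adjusted p = 0.99 by limma).

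ELOVL2, ELOVL3 and ELOVL7 fell under the level needed for the limma test and were compared by exact permutation, adjusted over the 3 genes. ELOVL2, which elongates the longer polyunsaturated chains on the way to docosahexaenoic acid, measured 0.385, 0.438, 0.613, 0.586 and 0.379 RPKM with DMSO and 0.494, 0.345, 0.404, 0.552 and 0.457 RPKM with GW3965, from 49 to 89 reads per library. The groups overlapped (means 0.480 ± 0.112 and 0.450 ± 0.0800 RPKM, exact permutation p = 0.643, adjusted p = 0.643). ELOVL3, known from skin and brown fat, measured 0.290, 0.219, 0.354, 0.300 and 0.132 RPKM with DMSO and 0.210, 0.268, 0.377, 0.282 and 0.573 RPKM with GW3965. GW3965 library 5 was its highest, with 26 reads, and the groups overlapped (exact permutation p = 0.357, adjusted p = 0.536). ELOVL7, which acts on saturated chains, had 10, 5, 7, 4 and 5 reads with DMSO and 5, 8, 3, 1 and 1 reads with GW3965. A difference was not detectable at this depth (31 against 18 reads in all, exact permutation p = 0.143, adjusted p = 0.429).

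The other genes of the pathway were taken from a list of 57 genes, of which 46 were tested. Of these, 5 were called, all higher, against 0.147% of all tested genes. Without adjustment, 12 were under 0.05, all higher, against 4.64%. The median log2 fold change over the 46 was 0.05, and 25 were above 0, against 51.1% of all tested genes. The list was chosen with earlier results of these data known. It also holds SREBF1 and SCD, which were used above to check the treatment. These counts are therefore a description and not a test of the pathway. FASN, the synthase that makes palmitate, rose from a mean of 77.1 ± 5.38 to 145 ± 3.27 RPKM, or by 0.91 on the log2 scale (adjusted p = 0.000108 by limma). SCD rose from 204 ± 25.4 to 365 ± 13.8 RPKM, by a log2 fold change of 0.85 (adjusted p = 0.00151 by limma). The acyl-CoA synthetase gene ACSL3 had 0.80, SREBF1 0.74 and INSIG1, which retains the SREBP complex in the endoplasmic reticulum, 0.52, with adjusted p of 0.00165, 0.00362 and 0.0312 by limma. Without the 3 libraries that stood apart, FASN, SCD and ACSL3 passed, and SREBF1 and INSIG1 had adjusted p of 0.0907 and 0.143 by limma. The call of INSIG1 was also lost on leaving out DMSO library 2 or 3 or any GW3965 library, with adjusted p of 0.0624 to 0.105 by limma, and 14 of 24 alternatives lost it. Groups did not overlap, with GW3965 higher, for 8 of the 46 tested genes, against 1.35% of all tested genes, and 0 were separated lower. Besides the 5 called genes, these were ACSS2 at 0.41, ACACA at 0.32 and LPCAT3 at 0.49. They were named after their values were seen and did not pass (adjusted p of 0.221, 0.143 and 0.213 by limma).

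**Figure D4:**
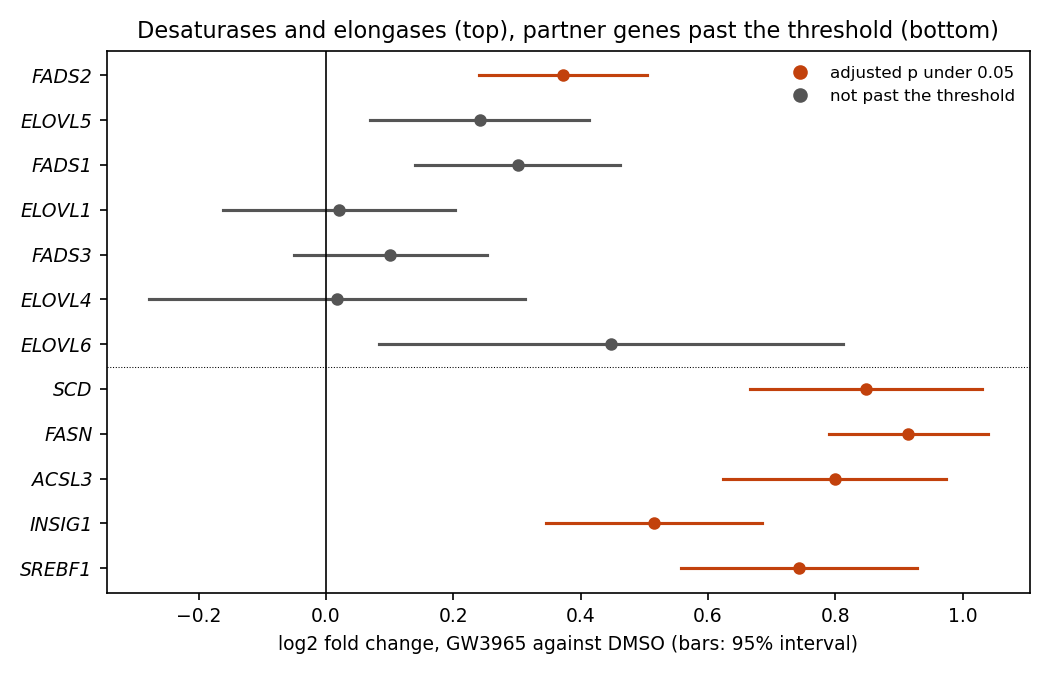
Log2 fold change of GW3965 against DMSO with its 95% interval from limma (n = 5 libraries per condition) for the 7 tested desaturases and elongases (top) and the 5 partner genes past the threshold (bottom). FADS2 at 0.37 is the only gene of the upper part past the threshold, and the partner genes lie between 0.52 and 0.91.

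Other groups of the list were the enzymes that work beside the desaturases and elongases, the users of acyl-CoA and the regulators. In the elongation cycle, an elongase is followed by a reductase, a dehydratase and a second reductase. Of its 5 tested genes, 0 passed by limma, against 0.157% of all tested genes. Under 0.05 unadjusted was 1, which was higher, against 4.64% of all tested genes. The ketoacyl reductase gene HSD17B12 was highest at 0.16 and the enoyl reductase gene TECR lowest at -0.02. The cytochrome b5 system passes electrons to desaturases. Of its 4 tested genes, 0 passed by limma and 0 were under 0.05 unadjusted, against 0.157% and 6.99% of all tested genes. CYB5R1 was at 0.00 and CYB5R4 at -0.02. Of the other desaturases, DEGS1, which introduces the double bond of ceramide, had -0.03. In palmitate supply the lowest was ACACB with 0.14, among the users of acyl-CoA CERS6, a ceramide synthase gene, with -0.07, and among regulators RXRB, an LXR partner, with -0.07. With voom on the recovered reads, 0 genes of the elongation cycle and the cytochrome b5 system were called, against 63 of all 20402 tested genes. The genes of LXRβ and LXRα themselves had log2 fold changes of -0.02 for NR1H2 and -0.01 for NR1H3.

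The likeness of other genes to FADS2 and ELOVL5 was described by Pearson's r of log2 values after the mean of each condition was removed, over the 10 libraries, which share scaling and depth. No test was made. The genes listed are the highest among all 20402 tested genes. Over 10 libraries, the highest of so many values can be this large by chance. The 5 tested genes most like FADS2 were ME1, the cytosolic malic enzyme that supplies NADPH, with r = 0.957, MON1B with 0.956, AHR with 0.953, USP11 with 0.953 and TCTA with 0.950. With FADS2, r was 0.61 for ELOVL5, 0.10 for FADS1, -0.35 for FADS3 and -0.51 for ELOVL6. The most like ELOVL5 were PCYOX1 with 0.977, TACC1 with 0.975, CANX with 0.974, SPTLC2, a subunit of the enzyme that opens sphingolipid synthesis, with 0.968 and SLC35B4 with 0.963. For FADS2 and FADS1, an r of 0.10 over 10 libraries is too uncertain to say whether they varied together within a condition.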

How the data were processed

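RNA of 10 PC3 libraries was assigned to DMSO or GW3965 by the sample titles. The authors deposited RPKM values per Ensembl gene, 1 column per library. The submitters' processing notes name hg38, HISAT2 2.1.0, HTSeq 0.11.2 and DESeq2 1.22.2, while the methods name a mouse genome; all identifiers were human. The sample records name polyA RNA, and the protocol describes ribosomal depletion. The annotation release is not given in the sources used here. Of the values above 0, 99.992% were whole reads (tolerance 0.001 reads), and 25978 of 44227 gene lengths equalled those of GENCODE 29. Reads carry no molecular identifiers, so counting error covers counting only. No pair of libraries was near-identical (chi-square per degree of freedom 6.63 to 72.1).

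limma 3.58.1 in R 4.3.3 was fitted to log2(RPKM + 0.1) where a gene averaged 0.5 RPKM or more (lmFit, eBayes with a trend). The two-sided p-values were adjusted by Benjamini-Hochberg, and 0.05 was the threshold. Fold changes are on the log2(RPKM + 0.1) scale, which understates changes of low genes. Ratios and untested members were compared by exact permutation in Python 3.11.15. The limma procedure was tested on simulated data. It recovered 6 of 49 genes given a log2 fold change of 0.3, 29 of 57 at 0.5 and 37 of 39 at 1. Every simulated gene had the same spread beyond counting, set near that of the abundant members. The simulation gave 128 calls, against 32 in the data, so its adjusted threshold was easier to pass. Genes that vary more, such as ELOVL6 with 18.8% within a condition, would be recovered less often. A gene that was not called may therefore still have changed by 0.3 to 0.5 or more. The 95% interval of ELOVL6 reached 0.81. Members and gene lists were chosen with earlier results of these data known. Named are all members, partner genes past the threshold or at either end of their group, ABCA1, ABCG1, SCD and SREBF1, and the 5 genes most like FADS2 and ELOVL5. Cluster neighbours and markers were listed with them, and NR1H2 and NR1H3 were named after their values were seen. Some results that the rule would name are not reported here. Alternatives were other pseudocounts, filters and scalings, a replicate block, no trend, library weights, voom on recovered reads and the loss of each library. Leaving out 3 libraries and the 2 covariates were chosen after seeing the data.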

Additional observations from a re-analysis of the deposited data

How the results depend on the processing

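FADS2 was the only desaturase or elongase called, and 0 were called with no filter, quantile normalization, the replicate block, no trend, the RN7SL share as a covariate or without the 3 libraries that stood apart (adjusted p of FADS2 0.0878, 0.138, 0.124, 0.108, 0.0678 and 0.144 by limma). Leaving out 1 library gave 0 to 1. The called partner genes numbered 3 with the replicate block and 3 without the 3 libraries, and 4 to 6 on leaving out 1 library. Over all genes, 32 were called, against 21 with no filter, 16 with the replicate block, 20 with no trend, 56 with library weights, 63 with voom on recovered reads, 146 with the first component as a covariate, 21 with the RN7SL share, 18 without the 3 libraries and 17 to 38 on leaving out 1 library. The log2 ratio of SCD to FADS2 differed by 0.48 under the replicate block, with an adjusted p of 0.1875 by exact sign flips. The smallest unadjusted p that exact sign flips of 5 pairs can give is 0.0625. Without the 3 libraries the ratio differed by 0.47 (adjusted p = 0.0857, exact permutation). On leaving out 1 library it differed by 0.44 to 0.51. The causes of these changes were not tested.

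Whether the replicate numbers pair the libraries is not known. Same-numbered libraries deviated together with r from -0.14 to 0.16, and 3 of 10 libraries correlated best with their own number. These few values cannot settle whether libraries were paired. The block also ended the calls of SREBF1 (adjusted p = 0.0643 by limma) and INSIG1 (adjusted p = 0.180 by limma). INSIG1 was also lost with no filter, quantile normalization, scaling to total reads, no trend and the RN7SL share (adjusted p of 0.0705, 0.0673, 0.103, 0.0686 and 0.113 by limma).

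Values near 0 that were not called changed sign. With library weights, DEGS1 had 0.0260, ELOVL4 -0.00574 and TECR 0.0124. With the RN7SL share, ELOVL4 had -0.00391 and TECR 0.00796. CYB5R1 had -0.00172 by median of ratios and -0.0217 by quantiles, CYB5R4 0.0103 by quantiles, and DEGS1 0.0499 without the 3 libraries. On leaving out 1 library the log2 fold changes ran from -0.0192 to 0.0237 for CYB5R1, -0.059 to 0.0393 for CYB5R4, -0.0801 to 0.0252 for DEGS1, -0.0333 to 0.0616 for ELOVL1, -0.0743 to 0.109 for ELOVL4, -0.0498 to 0.00478 for TECR, and the difference of ELOVL2 ran from -0.0553 to 0.00338 RPKM. The log2 fold changes of FADS1, ELOVL5 and ELOVL6 stayed above 0 in all 24 alternatives, between 0.24 and 0.33, 0.19 and 0.30, and 0.28 and 0.53, with no adjusted p under the threshold. Depth limits ELOVL3 and ELOVL7 most, at 6 to 26 and 1 to 10 reads per library.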
